A study of Mus musculus with 8 samples.

Results

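The transcripts described here were those that the scanner software marked as detected in testes of wild type mice and not in testes of VRK1-deficient mice. A probe was selected by its detection flag. It had to be well above background on all 4 wild type arrays and on none of the 4 VRK1-deficient arrays. Of 41174 probes on the array, 114 met this rule (0.277%), each for a different gene or transcript. The reverse pattern, with detection on all 4 VRK1-deficient arrays and no wild type array, was held by 2 probes (0.00486%). The rule used the genotype contrast itself, so the genotype differences of these 114 probes are given as a description, with no test.

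VRK1 (vaccinia-related kinase 1) is a nuclear serine/threonine kinase of dividing cells. In the testis it is made in spermatogonia, the dividing cells from which sperm descend. Around postnatal day 8 the mouse testis holds Sertoli cells, Leydig cells, peritubular cells, spermatogonia and the first cells entering meiosis, and spermatids are not expected yet. A transcript that is abundant in few cells, or scarce in all cells, gives a dim spot in RNA of the whole organ.

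Total RNA was taken from the testes of male mice at postnatal day 8, with 4 wild type and 4 VRK1-deficient samples. The mutant mice carried a gene-trap insertion of β-geo (a fusion of β-galactosidase and a neomycin resistance protein) in an intron of Vrk1. They came from 1 embryonic stem cell line, RRR178, crossed with C57BL/6 mice, and the allele is hypomorphic, with some full-length VRK1 remaining. Each RNA was labeled with Cy3 and hybridized to 1 one-color Agilent array. Nothing in the labels says that the 4 samples of a genotype came from separate litters. In bulk samples, fewer cells of a type and less RNA per cell cannot be told apart.

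Between 26230 and 28414 probes were well above background on a wild type array, and between 26003 and 26511 on a VRK1-deficient array. The arrays lay on 2 slides, each with 2 arrays of each genotype. Wild type replicate 1 stood apart. Its scaled log2 signals correlated with those of the VRK1-deficient arrays at r = 0.987 to 0.990, and with those of the other wild type arrays at r = 0.970 to 0.986. Both Vrk1 probes followed the labels. Probe A_51_P102339 had signals of 582, 785, 966 and 972 in wild type and of 46.4, 58.0, 47.9 and 30.6 in VRK1-deficient testes, a log2 difference of -4.00. Vrk1 was not among the selected probes, since it was well above background on all 8 arrays. Ddx4 and Dazl of germ cells, Amh and Sox9 of Sertoli cells, and Insl3 and Cyp17a1 of Leydig cells were well above background on all 8 arrays. So were the spermatid genes Prm1 and Tnp1, at lower mean signals (128 and 194 in wild type, 122 and 129 in VRK1-deficient testes).

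Each probe is a 60-base sequence, and its signal is a fluorescence intensity after background subtraction by the software. Raising or lowering the detection limit changed which probes met the rule, as described further on. Under the deposited flag and under each of 3 other limits, 5 probes met it. The first 30 bases of 4 of them are shown, since these are the letters that the measurement rests on:

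A_52_P1013232: atcgaattgaatgttttcgtgacttaaacc
Jhy: gctgctttcaaagtccttcacatcgtctag
Gtf2a1l: gctactgtattgtatgtgtggcccacattc
Foxred2: attttgtaccatacatcctgtactaagctg

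In build mm7, the array files place A_52_P1013232 at chr1:98459381-98459440, a position for which they name no gene. They place the probes of Jhy at chr9:40825908-40825967, of Gtf2a1l at chr17:87022273-87022332 and of Foxred2 at chr15:78036152-78036211. Jhy is named for juvenile hydrocephalus and is needed for normal motile cilia. Gtf2a1l is the germ cell form of the general transcription factor TFIIA, and Foxred2 is an oxidoreductase of the endoplasmic reticulum. A_52_P1013232, Gtf2a1l and Foxred2 are described after their values were seen.

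The selected transcripts were dim. Their mean wild type signal ranged from 12.6 to 47.0 with a median of 20.2, and their mean VRK1-deficient signal ranged from 4.73 to 14.9 with a median of 10.3. For comparison, the median wild type signal was 468 over the 24378 probes detected on all 8 arrays. Ranked among the 25445 probes detected on all wild type arrays, the brightest selected probe lay at percentile 13.7 and the median one at percentile 1.77. This is the brightness of the selected probes. Some of their genes were bright by another probe, as given further on.

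**Figure D1:**
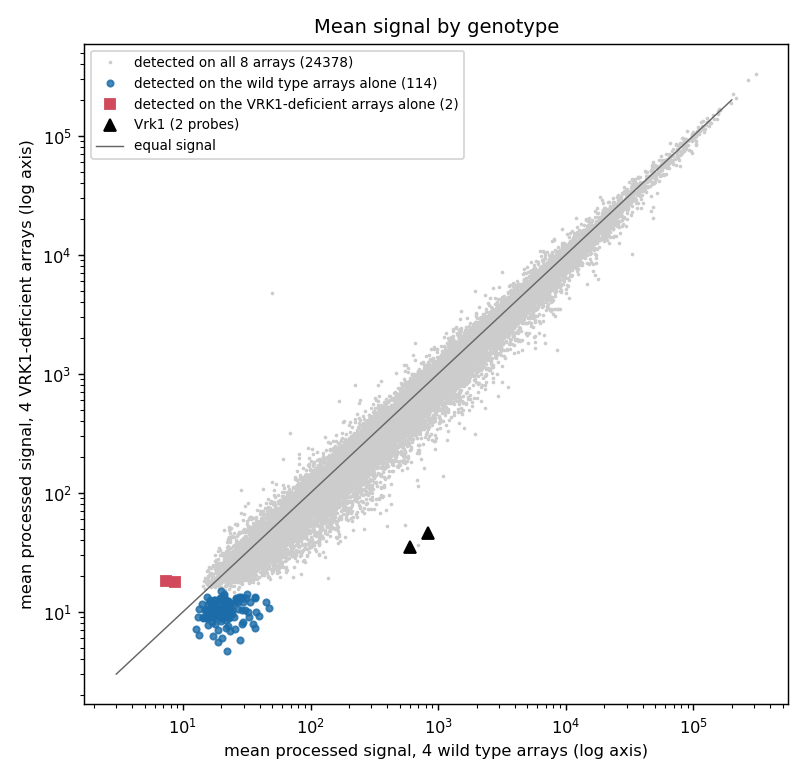
Mean processed signal of each probe over the 4 wild type arrays (horizontal, log axis) against that over the 4 VRK1-deficient arrays (vertical, log axis). The 114 probes detected on the wild type arrays alone lie at the dim end, between 12.6 and 47.0 in wild type, whereas the 2 Vrk1 probes lie far below the line of equal signal at wild type means of 826 and 600.

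The brightest selected probe, A_52_P1013232, had signals of 19.5, 66.5, 52.8 and 49.4 on the wild type arrays and of 10.7, 10.6, 10.7 and 11.4 on the VRK1-deficient arrays. The genotypes did not overlap, and wild type replicate 1 was the lowest of the wild type arrays. Because no VRK1-deficient array was well above background, ratios to that genotype are written as at least a number, from scaled log2 signals. A VRK1-deficient signal below the lowest flagged signal of its array (2.66 to 6.54 units) was set to it. Others were used as measured, although unflagged signals reached 16.7 to 22.3 on these arrays. With and without this step the median over the 114 was 1.77-fold. The words at least thus cover this step alone and not measurement error. The wild type level of A_52_P1013232 was at least 3.496-fold higher. These bounds and directions hold for the processed signal of the scanner software. They shrank, and for many of the 114 turned, under the settings given after the named genes.

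Among named genes, Tnk1, a non-receptor tyrosine kinase, was the brightest. Its signals were 21.7, 59.8, 47.3 and 51.5 in wild type and 12.9, 16.5, 10.5 and 9.01 in VRK1-deficient testes, at least 3.13-fold higher in wild type. Jhy had 26.4, 51.9, 24.2 and 44.4 in wild type and 4.05, 11.3, 10.3 and 3.55 in VRK1-deficient testes. At least 4.32-fold, this was the largest bound among the 114. It rests on the selected probe. The other Jhy probe, A_52_P178236, had means of 2.29 in wild type and 2.67 in VRK1-deficient testes, a log2 difference of 0.39. The other Tnk1 probe had means of 8.39 and 3.61. Replicate 1 was the lowest wild type array for Tnk1, whereas for Jhy it was replicate 3.

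Of the 114, 6 were put in a group of genes known from the male germ line. It was assembled after the names were seen, with no fixed list and no share over all probes to read the count against. Their mean wild type signals lay between 19.3 and 36.7 and their mean VRK1-deficient signals between 7.12 and 13.0. Scaled signals did not overlap between genotypes for any of the 6, nor for 68 of the 114. Over all tested probes, 7.3% had every wild type array above every VRK1-deficient array. The flag chose these probes on the same arrays, so nothing is read from the 6. Mak, the male germ cell-associated kinase, had signals of 20.01, 45.6, 30.15 and 49.99 in wild type and of 10.2, 16.8, 10.5 and 14.6 in VRK1-deficient testes, at least 2.37-fold higher in wild type. Gtf2a1l had 19.4, 30.5, 20.2 and 26.4 against 6.92, 12.4, 9.63 and 9.55, at least 2.22-fold. Its lowest wild type array stood above its highest VRK1-deficient array. Taf7l2, a paralog of a TFIID subunit, was at least 3.03-fold higher in wild type, and Spesp1, a protein of the sperm equatorial segment, at least 2.02-fold. Jhy was also counted in this group.

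Ythdc2, an RNA-binding helicase required for germ cells to leave mitosis and progress through meiosis, was the only one of the 114 that stood in the lists of testis cell type genes. Its selected probe had 12.6, 27.4, 16.1 and 20.9 in wild type and 8.55, 12.02, 10.2 and 5.91 in VRK1-deficient testes, at least 1.84-fold higher in wild type. The gap between the genotypes was narrow, with 12.6 against 12.02 at its closest. A second Ythdc2 probe was detected on all 8 arrays, with a mean signal of 321 in wild type and of 170 in VRK1-deficient testes, a log2 difference of -0.65.

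Other members are known from other organs. By general knowledge, 32 of the 114 were put in a group by role, the germ line group included, and 82 were in none. Ctnnd2 (a catenin of neuronal junctions), Caln1 (a neuronal calcium-binding protein) and Gdap1 (a mitochondrial outer membrane protein of nerve cells) were among the 15 brightest, and 8 of the 114 described here are best known from neurons. Caln1 had 17.6, 33.4, 32.7 and 32.4 in wild type and 12.4, 11.9, 10.6 and 6.89 in VRK1-deficient testes, at least 2.44-fold higher in wild type. Another 5 are known from liver and kidney. Among these Pck1, the gluconeogenic enzyme, had 20.7, 34.85, 38.3 and 39.7 against 13.7, 6.90, 14.7 and 12.6, and G6pc, Apoa5, Serpinc1 and Havcr1 had mean wild type signals down to 15.7. The list also held 2 muscle genes (Myl3 and Myog), 5 genes of immune cells (Jchain, Ccr6, Pik3cg and Slc46a2 among them), 2 olfactory receptors, and the homeobox genes Irx2 and Nkx1-2. Mean wild type signals within these groups did not exceed 35.2. The ratio of wild type to VRK1-deficient level, from means of scaled log2 signals, went from 1.05 to 4.86. Scaled signals of the genotypes overlapped for Myl3, the myosin light chain of heart and slow muscle. Before scaling, wild type replicate 1 was at 13.9 and VRK1-deficient replicate 2 at 13.9. Scaling placed that wild type array above that VRK1-deficient array, so the overlap lay with another VRK1-deficient array.

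Of the other genes among the 15 brightest, Tecpr2 (a protein of autophagy) had 26.5, 35.9, 24.9 and 31.2 in wild type, the most even of them, with an SD of 0.05 on the scaled log2 scale. Its VRK1-deficient signals were 14.4, 15.5, 3.79 and 14.9, so that 1 low array widened that genotype. Wfdc12 (of a family of secreted protease inhibitors) and Noxa1 (an activator of NADPH oxidases) had the smallest bounds of the 15, at least 1.83-fold and at least 1.78-fold. The 2 uncharacterized RIKEN transcripts 4930503E14Rik and E230025N22Rik were at least 2.99-fold and at least 2.07-fold higher in wild type.

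**Figure D2:**
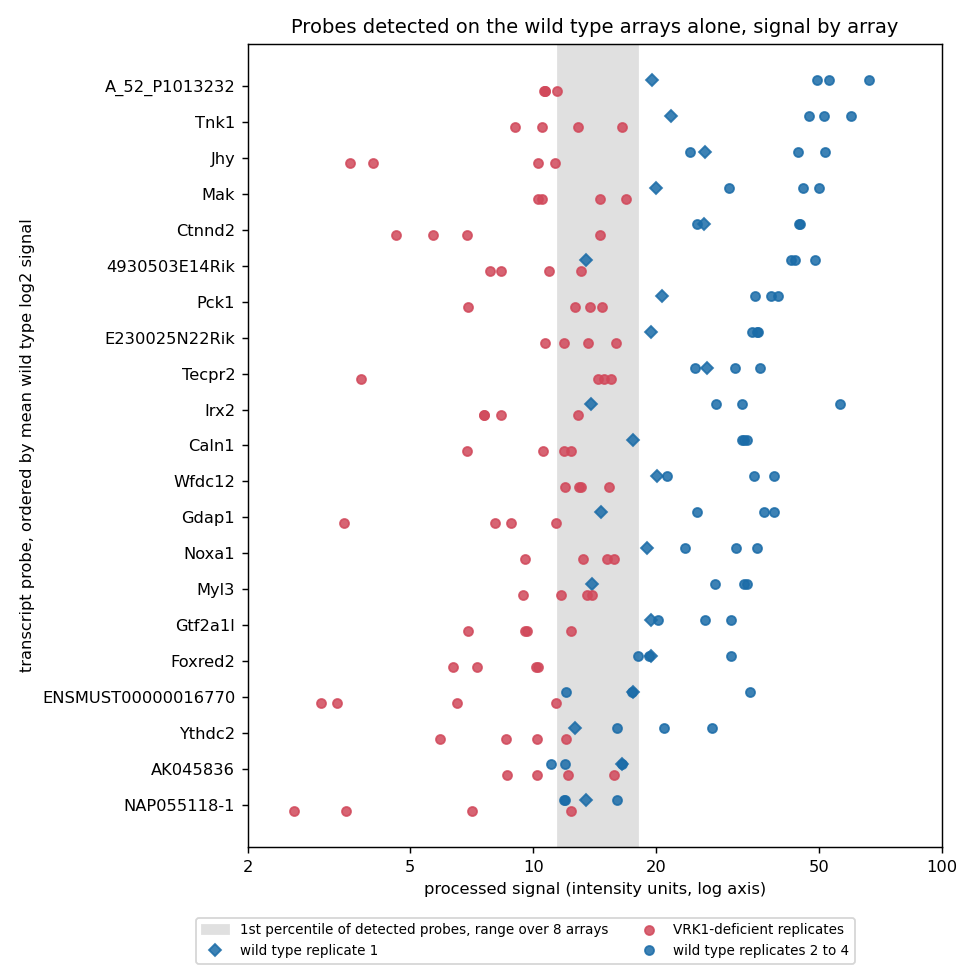
Processed signal (horizontal, log axis) of 21 selected probes on each array, with wild type in blue (replicate 1 as a diamond) and VRK1-deficient in red. The grey band spans the 1st percentile of signal among detected probes over the 8 arrays (11.5 to 18.1), and most red points lie within or below it while most blue points lie above it.

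Over all 114, the ratio of wild type to VRK1-deficient level, from means of scaled log2 signals, had a median of 1.77, from 1.05 to 4.86. With signals below the lowest flagged one set to it as above, this ratio was at least 1.5-fold for 81 of them and at least 2-fold for 38. The median log2 difference (VRK1-deficient minus wild type) was -0.82, against 0.04 over all tested probes. It was -0.78 on slide 1, -0.94 on slide 2 and -0.91 without wild type replicate 1. On the scaled log2 scale, 68 of the 114 had every wild type sample above every VRK1-deficient sample, and 46 did not. Over all tested probes, 7.3% had every wild type array above every VRK1-deficient array. Because the flag chose the 114 on the same arrays, nothing is read from this contrast. With quantile normalization, and without scaling, all 114 were lower. Other settings moved the difference to near that of all probes. With normexp, a model-based correction of the unprocessed spot signals to which 50 units were added, the median of the 114 was 0.11, next to 0.12 over all tested probes, with 25 below 0 and 89 above 0. The 50 units exceed the mean signal of every selected probe, so both steps were also run apart, after seeing the data. Normexp without the added units gave a median of -0.02 (0.11 over all tested probes), with 63 below 0 and 51 above. The processed signal with 50 units added gave -0.05 (0.07 over all tested probes), with 78 below 0 and 36 above.

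Absence of the flag was not absence of signal. The software gives a second, weaker flag to a spot whose signal is significantly above its local background. By this flag 109 of the 114 probes had signal on all 4 VRK1-deficient arrays, 5 had it on some of them, and 0 had it on none. The 5 were Gdap1, Adgrg6, ENSMUST00000016770, AK038533 and NAP055118-1. The probes nearest to the limit show how small the step was. AK045836 had signals of 16.5, 11.97, 16.5 and 11.1 in wild type and of 15.7, 8.60, 10.2 and 12.1 in VRK1-deficient testes, a difference smaller than the spread among the samples of either genotype. ENSMUST00000016770 had 17.5, 11.99, 17.5 and 33.9 against 3.31, 11.3, 6.51 and 3.01. NAP055118-1 had 13.5, 11.9, 16.1 and 11.9 against 3.47, 12.3, 7.09 and 2.60. The flags separated the genotypes of all 3 transcripts, whereas their signals overlapped after scaling.

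Some transcripts just outside the rule differed about as much as the most different of the 114, which were Nkx1-2 (log2 difference -2.28) and Jhy (-2.27). Prok2, which encodes the secreted peptide prokineticin 2, had signals of 14.3, 78.3, 104 and 67.9 in wild type and of 6.94, 13.3, 12.1 and 7.85 in VRK1-deficient testes, a log2 difference of -2.28, and it was left out because 1 VRK1-deficient array carried the flag. Mybpc2, a myosin-binding protein of skeletal muscle, had a log2 difference of -2.26 and was left out for the same reason. Its signals were 15.1, 73.3, 47.9 and 79.6 in wild type and 4.32, 24.3, 8.87 and 5.30 in VRK1-deficient testes, so the genotypes overlapped. The testis transcript 1700031F05Rik had 7.12, 27.8, 25.0 and 50.7 against 3.67, 5.06, 3.18 and 4.31. No VRK1-deficient array carried the flag, so that its wild type level was at least 3.74-fold higher, and it was left out because wild type replicate 1 did not carry the flag. In all, 158 probes were detected on 4 wild type arrays and 1 VRK1-deficient array, and 345 on 3 and none. More broadly, 3712 probes were detected on more wild type than VRK1-deficient arrays and 1023 on fewer.

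**Figure D3:**
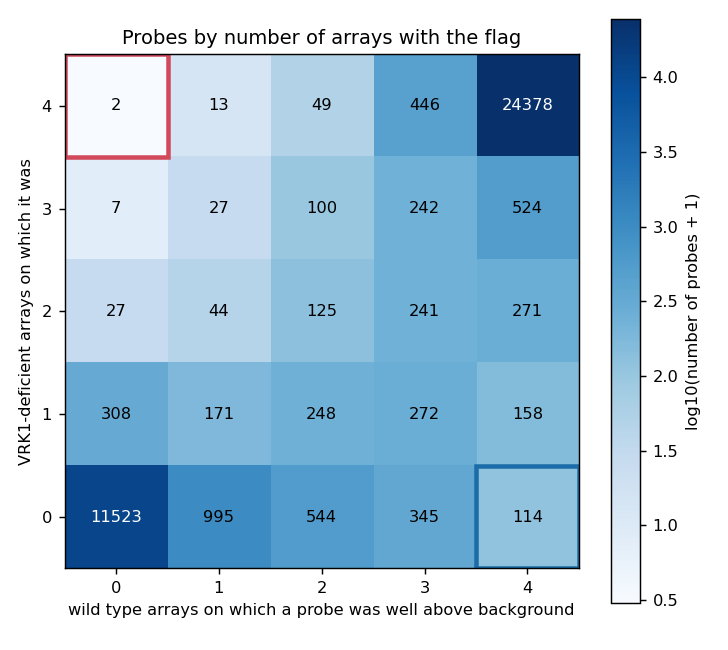
Number of probes by the count of wild type arrays (horizontal) and VRK1-deficient arrays (vertical) on which they were well above background; color gives log10 of the number plus 1. The blue frame marks the 114 probes of the wild type arrays alone and the red frame the 2 probes of the reverse pattern, and 24378 probes were detected on all 8 arrays.

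The 2 probes of the reverse pattern were as dim. Otor, a secreted protein of the inner ear, had signals of 11.9, 6.79, 6.67 and 3.86 in wild type and of 21.5, 23.7, 11.7 and 15.5 in VRK1-deficient testes. The long non-coding RNA Gm5084 had 11.0, 11.0, 3.78 and 8.82 in wild type and 21.5, 22.1, 15.1 and 12.6 in VRK1-deficient testes. Scaled log2 signals did not overlap between the genotypes for either probe, although the unscaled signals of Otor crossed at 11.9 and 11.7. The VRK1-deficient level was at least 2.56-fold higher for Otor and at least 2.46-fold higher for Gm5084. Their probes begin with these 30 bases:

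Otor: cggtctttccaccaactgcgactacgtgct
Gm5084: accagaaatgaaggtttagggtggtcatgt

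The numbers 114 and 2 depended on how detection was set. Each array has its own limit in the software. The highest signal without the flag was 14.8 to 18.7 in wild type samples and 16.7 to 22.3 in VRK1-deficient samples. With 1 common limit for all arrays on the scaled log2 signal, 31 probes were detected on the wild type arrays alone and 25 on the VRK1-deficient arrays alone. Of those 31, 26 were among the 114. With 1 common limit on the unscaled signal (14.0 units), the numbers were 49 and 5, and 32 were shared with the 114. With the same number of probes taken as detected on every array (the 26003 brightest), they were 27 and 24, and 15 were shared. By the weaker significance flag they were 51 and 7, and 0 were shared. Under at least 1 of the first 3 of these limits 44 of the 114 kept the pattern and 70 did not, and 5 kept it under all 3. The part of the arrays' limits in the 114 was otherwise not tested.

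**Figure D4:**
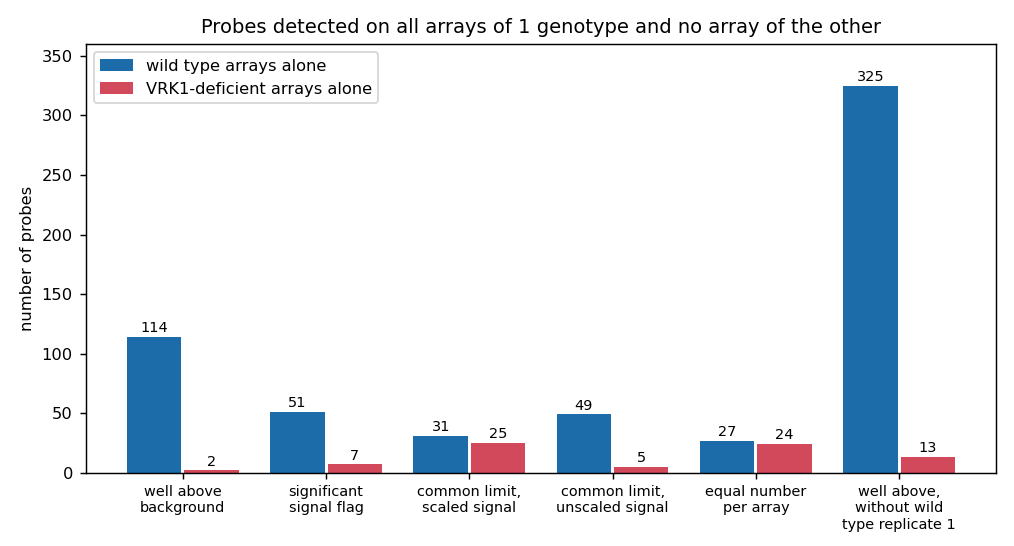
Number of probes detected on all arrays of 1 genotype and no array of the other (vertical, from 0), in blue for wild type and in red for VRK1-deficient, by how detection was set. The 114 against 2 of the deposited flag became 31 against 25 with a common limit on the scaled signal and 27 against 24 with an equal number of detected probes per array.

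A rule over fewer arrays can only keep or raise the 2 numbers, whichever array is left out. Leaving out wild type replicate 1 raised the number of probes of the wild type arrays alone to 325, and that of the reverse pattern to 13. Leaving out any other array gave between 118 and 233 in wild type, the highest being 233 when wild type replicate 3 was dropped and 192 when VRK1-deficient replicate 2 was. Replicate 1 was the lowest wild type array for 44 of the 114 probes (38.6%, against 30.7% of all tested probes). It was the highest for 26 (22.8%, against 39.5%). Replicate 4 was the lowest for 31.6% (against 24.5%), replicate 2 for 21.1% (against 13.4%) and replicate 3 for 8.77% (against 31.4%). The brighter germ cell markers were low on replicate 1. Ddx4, the germ cell RNA helicase, had a signal of 1862 on replicate 1 and of 4721 to 5163 on the other wild type arrays, against 1587 to 2622 on the VRK1-deficient arrays. The summed signal of 100 germ cell list genes was 113167.1 on replicate 1, at most 252767.2 on the other wild type arrays, and 72051.1 to 138542.6 in VRK1-deficient testes. That of 52 somatic list genes ran from 456771.8 to 509219.8 in wild type and from 390727.7 to 564225.4 in VRK1-deficient testes. Both sums are of unscaled signals, so the brightest genes weigh most in them. On wild type replicate 1, Stra8 gave 11830 of the germ cell sum and Clu 109791 of the somatic sum. The part of germ cell content in the 114 was not tested.

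Probes chosen by the rule on 1 slide were also read on the other slide, whose arrays that choice had not used. The 114 themselves were chosen on both slides. On slide 1 alone, 597 probes were flagged on both wild type arrays and on neither VRK1-deficient array. On slide 2, 114 of these had the same pattern, which makes them the 114, and 1 had the opposite pattern. Over all probes, 1.37% had the pattern on slide 2, a share over many probes that were flagged on all 8 arrays or on none. The median log2 difference of the 597 on slide 2 (wild type minus VRK1-deficient) was -0.000998, against -0.21 over all probes. Their mean signal was lower in VRK1-deficient testes of slide 2 for 49.6% of them, against 36.3% of all probes. In the other order, 566 probes were chosen on slide 2 and the same 114 had the pattern on slide 1, with a median log2 difference of 0.54 (wild type minus VRK1-deficient) against -0.07 over all probes. Their mean was lower in VRK1-deficient testes of slide 1 for 81.6%, against 42.6% of all probes. Most probes with the pattern on 1 slide did not have it on the other.

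For some of the genes another probe was brighter, and for others it was dimmer. Of the 114, 45 belonged to a gene with another probe on the array, and for 25 of these genes another probe was detected on all 8 arrays. Nsa2, a factor of ribosome assembly, had a selected probe with means of 15.8 and 8.85 in wild type and VRK1-deficient testes, and another with means of 19108 and 18726. Rbm3, a cold-inducible RNA-binding protein, had means of 21.7 and 10.9 by the selected probe and of 17004 and 18049 by the other. The paired probes read different places of the same gene, as their first 30 bases show:

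Nsa2 selected probe: cagtaaaaaagacatccacctcactaaatc
Nsa2 other probe: agccttacctcatgtgcagtcatcaagcat
Rbm3 selected probe: agttggatggttttctagctgtgtgtgtat
Rbm3 other probe: atggccagaaagtgatttctgaatgtacct

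In build mm7 the Nsa2 probes lie at chr13:94202962-94203021 and chr13:94201410-94201469, and the Rbm3 probes at chrX:6574057-6574116 and chrX:6575680-6575739. The paralogs and pseudogenes that such probes could share were not examined. Over the 25 genes, the brightest other probe had a median log2 difference of -0.20, from -1.83 to 0.39, and was lower in VRK1-deficient testes for 18. It was more than 2-fold lower for 2 of them. Ctnnd2 had means of 170 and 39.1 by its other probe (log2 difference -1.83), in the same direction as the selected probe at 35.2 and 7.94. Kif27, a kinesin-like protein of the ciliary pathway, had means of 287 and 110 by its other probe (log2 difference -1.13), which lies on the minus strand, whereas its selected probe lies on the plus strand. For another 12 genes the other probes were detected on no array. The other probes of Jhy and Tnk1, given above, were dimmer than the selected ones. So were those of Mak (means of 12.9 in wild type and 8.25 in VRK1-deficient testes) and 4930503E14Rik (2.27 and 3.14).

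**Figure D5:**
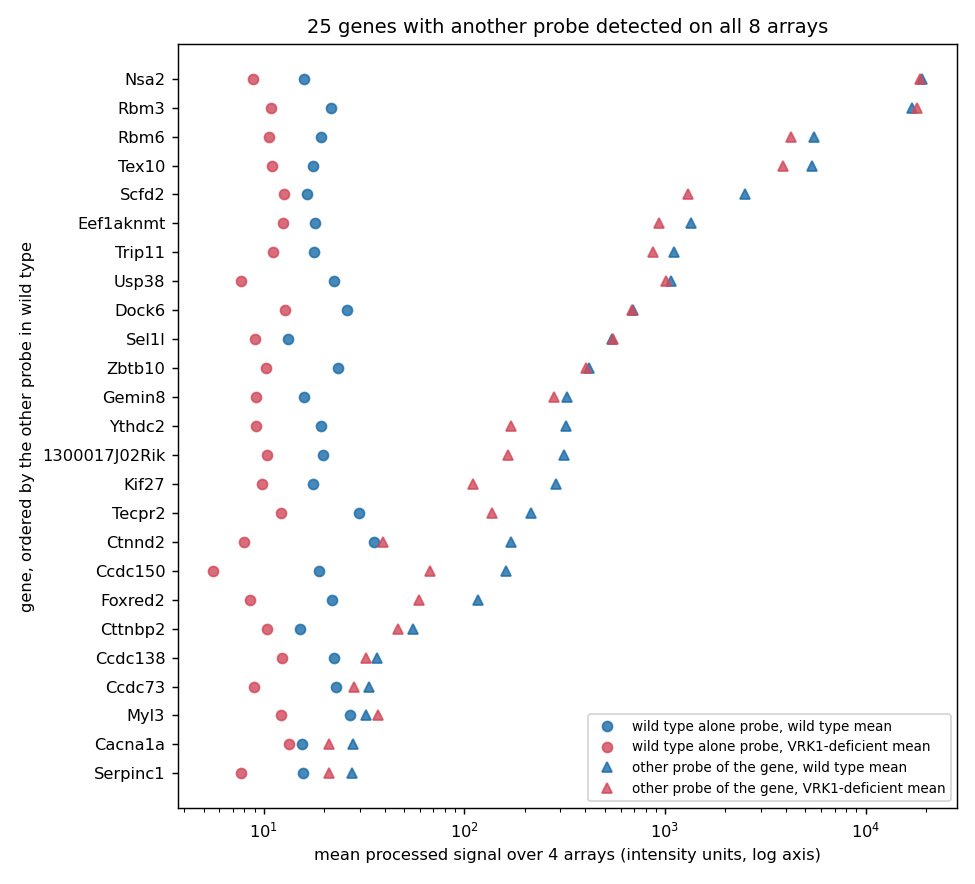
Mean processed signal over 4 arrays (horizontal, log axis) for the 25 genes with another probe detected on all 8 arrays; circles are the selected probe and triangles the brightest other probe, in blue for wild type and in red for VRK1-deficient. The circles stay near 10 to 35 units while the triangles run from about the same level up to 19108, and for Nsa2 and Rbm3 the triangles of the genotypes nearly coincide.

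The 114 probes shared few other features. A RefSeq symbol was found for 71 (66 protein-coding and 5 long non-coding genes), and 43 kept the name of the array files. Thus 37.7% were without a RefSeq symbol, against 20.5% of all probes and 11.5% of those detected on all wild type arrays. The files describe 9 of the 114 (7.89%) as cDNA cloned from testis, against 3.77% of all probes. These include Tecpr2, Ccdc150, Rbm6, Kif27 and the non-coding transcripts 1700069L16Rik and 4933438B17Rik. The median GC content of the probes was 40.0%, the same as over all probes, and 43.3% for those detected on all wild type arrays. The 111 with a position lay on 20 chromosomes. Chromosome 9 held the most, 10 (9.01%, against 5.69% of all placed probes). Chromosome 12, which carries Vrk1, held 8 (7.21%, against 3.73%), and 4 (3.51% of the 114, against 1.34% of all probes) lay within 20 Mb of Vrk1, namely LOC382639, Tecpr2, Trip11 and Sel1l. The X chromosome held 4. RefSeq promoters (GRCm38.p6, from 250 bases before to 50 after a start) were found for 61 of the 71 genes, giving 71 promoters. The letters CACGTG stood in 11.3% of these and in 7.15% of all promoters, and TCCCGC on either strand in 21.1% and 19.98%. Both motifs hold the letters CG, which occurred a median of 10 times in these promoters and 7 times in all promoters. TATAAA on either strand stood in 14.1% and 13.6%.

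Most transcripts that fell in VRK1-deficient testes by the test across all probes were detected there, as were most tested probes. Of 26962 tested probes, 535 were lower (1.98%) and 451 were higher (1.67%) at an adjusted p under 0.05 (limma). Of the 535, 436 were detected on all 4 VRK1-deficient arrays, a smaller share than the 24888 of all 26962 tested probes. Only 114 of the tested probes had the wild type only pattern. The 114 account for 38 of the 535, and since the rule used this contrast nothing is read from that count. Leaving out wild type replicate 1 gave 3964 lower and 3695 higher, and leaving out any other array gave at most 23 and 45.

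The wider germ cell program was read from 8 lists of germ cell genes and 6 of somatic cells, without the 114. Of 100 germ cell genes tested, 15 were lower and 1 was higher (Bcl6b, a factor of spermatogonial stem cells), and their median log2 difference was -0.82, against 0.04 over all tested probes. The 15 include Lin28a and Sall4 of undifferentiated spermatogonia, Dmrtb1 of differentiating spermatogonia, Stag3 and Sycp2 of the meiotic chromosome axis, and Piwil4, Tdrd1 and Tdrd9 of the piRNA pathway. Undifferentiated spermatogonia were mixed, with 2 lower, 1 higher and 13 not called of 16 tested (median -0.24, 9 of 16 below 0). Gfra1 (log2 difference 0.54), Etv5 (0.66), Nanos2 (0.50) and Lhx1 (0.71) of that list lay above 0 and did not pass the test. Sycp2 had signals of 71.1, 194, 149 and 228 in wild type and of 33.9, 50.3, 35.4 and 46.6 in VRK1-deficient testes (log2 difference -1.67, SE 0.31, limma adjusted p = 0.0435). It was flagged on all 8 arrays. Of 52 somatic genes, 1 was lower and 5 were higher, with a median of 0.23. The 5 were Pdgfra and the mast cell genes Cma1, Cpa3, Mcpt4 and Tpsb2. Without wild type replicate 1, 75 germ cell genes were lower, and without any other array 0 or 1.

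Detection of the list genes was counted in the same way. Over all 41174 probes, 24378 were detected on all 8 arrays and 11523 on none. The flag was on more wild type than VRK1-deficient arrays for 3712 of them and on fewer for 1023. The list genes were counted by 1 bright probe each, so these shares are not quite alike. By the brightest probe of each of 130 germ cell genes, 95 were detected on all 8 arrays and 13 on none. More wild type than VRK1-deficient arrays had the flag for 20 genes and fewer for 1. Hfm1 (a helicase of meiotic crossover formation), Tdrd6 (of the chromatoid body), Spag16 (of the sperm axoneme), Tssk3 (a testis-specific kinase) and Padi6 (of the oocyte) were detected on 3 wild type arrays and no VRK1-deficient array. Of 56 somatic genes, 50 were detected on all 8 arrays, 0 had the flag on more wild type arrays and 2 had it on more VRK1-deficient arrays.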

How the data were processed

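RNA of 4 wild type and 4 VRK1-deficient testes was measured on 1-color Agilent Whole Genome Mouse arrays. The authors extracted spots with Agilent Feature Extraction 9.5.3.1 and deposited a background-subtracted processed intensity and detection flags (other values, 0 or 1) for each spot, not scaled between arrays. How the authors normalized the arrays is not stated in the sources read. Of 45018 spots, 43379 were not controls, for 41174 probes. A probe was called well above background by the maximum of the deposited flag over its spots. The members and the gene lists were chosen with earlier results of these data known.

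For levels, log2 of the deposited intensity minus the 75th percentile of the array was computed, spots marked as outliers were left out and spots of a probe were averaged. Where no array of a genotype was well above background, its level per array was the higher of the lowest detected signal and the probe's own. Probes well above background on at least 4 arrays were tested with limma 3.58.1 (R 4.3.3), with Benjamini-Hochberg adjustment over all tested probes. The fit was checked on simulated data. The common limit was the median over arrays of the 1st percentile among detected probes. Probes were named through RefSeq by accession (22951), symbol (6659) or synonym (3109), and by the file otherwise (8455). Positions are those of the files (mm7). The sequences come from the array files. Genes given with values are the members in a list, the 15 brightest with a symbol, the 3 nearest the limit on either side, the reverse pattern and Vrk1. The others were chosen after their values were seen. The number of arrays limits the precision. Alternatives were other detection limits, normexp, quantile or no scaling, other filters, slide or replicate as a block, each slide alone, each array left out, limma with robust variances and an intensity trend, and the methods' t-test. The limits on unscaled signal and with equal numbers of detected probes, the choice on slide 2, normexp without an offset and 50 units added to the processed signal were added after seeing the data. Figures were made with matplotlib 3.10.9. The values of 1 selected transcript are not reported here.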

Additional observations from a re-analysis of the deposited data

Results flagged for a closer look

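Of the named transcripts, 3 had 1 sample far from the other 3 of its genotype on the scaled log2 scale, with a gap that took up more of the genotype's whole range than Dixon's 95% critical value. Chance gives about 1 such group in 20, and 40 groups were looked at. Tnk1 had a signal of 21.7 on wild type replicate 1 and of 47.3 to 59.8 on the other wild type arrays (gap 0.897 of the range). Myl3 had 13.9 on the same array and 27.9 to 33.4 on the others (gap 0.831). Gdap1 had 3.44 on VRK1-deficient replicate 1 and 8.06 to 11.4 on the other arrays of that genotype (gap 0.961). Wild type replicate 1 is the array that stood apart over all probes.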

How the results depend on the processing

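Of 234 values of 18 named transcripts under alternative settings, 212 moved by less than 1 SD, 10 moved by more and 12 changed sign. Most of these settings left out 1 array, which cannot shift a difference by 1 SD. Such values could only stay or change sign, so the 212 are no measure of stability. Normexp with 50 units added moved or turned all 18, to between -0.245 (Jhy) and 0.255, with Ctnnd2 at -0.153 and Gdap1 at -0.0754. With it the log2 difference (VRK1-deficient minus wild type) became 0.0114 for Pck1, 0.0226 for E230025N22Rik, 0.0354 for Wfdc12, 0.0892 for Noxa1, 0.0753 for Myl3, 0.133 for Ythdc2, 0.255 for AK045836 and 0.236 for NAP055118-1. That of AK045836 was also 0.0419 on slide 2 alone, and went from -0.241 to 0.110 when 1 array was left out, above 0 when this was replicate 1 (0.0296) or 3 (0.0490) of wild type or replicate 2 of the VRK1-deficient samples. The median of the 114 was 0.112 with normexp, -0.0165 with normexp and no added units, and -0.0544 with 50 units added to the processed signal, so both the correction and the added units moved it.

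The probes detected on the wild type arrays alone and on the VRK1-deficient arrays alone numbered 51 and 7 by the weaker significance flag, 31 and 25 with a common limit, 49 and 5 with a common unscaled limit, and 27 and 24 with equal numbers of detected probes. They numbered 597 and 18 on slide 1 alone, 566 and 84 on slide 2 alone, and 617 and 22 with 1 discordant array allowed, since these rules ask for fewer arrays. Leaving out 1 array, which also asks for fewer arrays, gave 118 to 325 and 2 to 13. Leaving out spots marked as outliers gave 114 and 2.

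Probes lower and higher in VRK1-deficient testes and germ cell genes lower (535, 451 and 15 in the report, limma) numbered 351, 425 and 7 with quantile normalization, 624, 753 and 33 with normexp, 835, 64 and 30 without scaling, and 13, 4 and 1 with no filter. With the filter on all 8 arrays they were 751, 638 and 22. They were 327, 314 and 9 with slide as a block, 3, 0 and 0 on slide 1 alone (2666 probes and 5 germ cell genes at an unadjusted p under 0.05), and 747, 312 and 44 on slide 2 alone. They were 48, 114 and 1 by the methods' t-test after Benjamini-Hochberg adjustment, and 1054, 862 and 30 with an intensity trend and robust variances. Leaving out 1 array gave 2 to 3964, 1 to 3695 and 0 to 75, the highest without wild type replicate 1.

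With the replicate number as a block they were 1539, 741 and 47. The numbers were not taken to pair the samples, since the deviations of same-numbered samples correlated at 0.468, 0.073, 0.188 and -0.138.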
